A study of Mus musculus with 8 samples.

Results

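The TNF receptor superfamily genes examined here were 8 receptors known from T cells: Tnfrsf4 (OX40), Tnfrsf9 (CD137), Tnfrsf18 (GITR), Tnfrsf1a (TNFR1), Tnfrsf1b (TNFR2), Tnfrsf14 (HVEM), Cd27 and Fas. They were chosen by name, and each array probe was assigned to a receptor through the transcript accession given for it in the array files. All 8 were found, on 12 of 55681 non-control probes, and they are 8 of the 15139 genes tested. Tnfrsf9, Tnfrsf1a, Tnfrsf14 and Cd27 each had 2 probes, and the brighter probe, by its mean log2 signal, represents the gene unless the other probe is named. All 12 probes were well above background on all 8 arrays and none was saturated.

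Messenger RNA was measured in mouse splenic T cells on one-colour Agilent arrays, with 2 arrays in each of 4 groups. The wild-type (WT) groups came from Lsp1+/+ C57BL/6 mice and the knockout (KO) groups from mice lacking Lsp1, a leukocyte protein that binds the actin cytoskeleton, after backcrossing to C57BL/6 to generation N10. Cells of each genotype were kept in medium or were given antibodies against CD3 and CD28, which trigger the T cell receptor and its costimulator, for 6 h. The mice were matched for age and sex and were between 8 and 12 weeks old unless specified otherwise by the submitters, and the tissue and cell type were the same in all groups. The knockout was carried by the animal, so other spleen cells of these mice lacked Lsp1 too. The labels give neither how the T cells were separated nor whether replicate arrays stand for different mice. The p-values then measure only the differences among these samples, and those could be technical.

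Receptors of this family bind trimeric ligands of the TNF superfamily, most of them on the surface of neighbouring cells. Those without a death domain, such as OX40, CD137, GITR, TNFR2, HVEM and CD27, recruit TRAF adaptors and activate NF-κB, and on T cells they act as costimulators of survival and division. TNFR1 and Fas carry a cytoplasmic death domain, through which they can also start apoptosis. CD27 is present on resting T cells, while OX40 and CD137 are textbook activation-induced receptors, and OX40, GITR and TNFR2 are carried at high level by regulatory T cells. HVEM is unusual in binding both a TNF family ligand, LIGHT (Tnfsf14), and the immunoglobulin-type molecules BTLA and CD160.

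Tnfrsf1b, Tnfrsf9, Tnfrsf14, Tnfrsf4 and Tnfrsf18 lie on chromosome 4 in the RefSeq annotation of GRCm38.p6, with 2 annotated genes between Tnfrsf4 and Tnfrsf18. Tnfrsf1a and Cd27 lie on chromosome 6 and Fas lies on chromosome 19. The RefSeq promoter table of the same build held 9 windows for the 8 receptors, each running from 250 bases before to 50 after an annotated start, with 2 windows for Tnfrsf9. The sequences below are the 250 bases before the start for the 4 receptors that passed the stimulation test in either genotype, so that their transcription start regions can be set beside their values. Capitals mark matches to the NF-κB consensus and to the AP-1 motif TGANTCA, the sites of transcription factors that T cell receptor signalling activates.
Tnfrsf4, chr4:156013445-156013694, plus strand: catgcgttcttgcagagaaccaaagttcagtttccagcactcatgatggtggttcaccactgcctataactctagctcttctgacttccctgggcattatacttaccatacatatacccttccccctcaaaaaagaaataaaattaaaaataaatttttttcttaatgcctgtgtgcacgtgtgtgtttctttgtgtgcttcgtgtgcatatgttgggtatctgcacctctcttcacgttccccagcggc
Tnfrsf18, chr4:156026072-156026321, plus strand: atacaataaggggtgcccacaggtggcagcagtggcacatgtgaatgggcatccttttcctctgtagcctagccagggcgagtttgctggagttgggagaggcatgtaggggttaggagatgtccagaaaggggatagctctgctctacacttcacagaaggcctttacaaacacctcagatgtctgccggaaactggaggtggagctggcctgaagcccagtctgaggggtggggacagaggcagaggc
Tnfrsf9, upstream start, chr4:150919905-150920154, plus strand: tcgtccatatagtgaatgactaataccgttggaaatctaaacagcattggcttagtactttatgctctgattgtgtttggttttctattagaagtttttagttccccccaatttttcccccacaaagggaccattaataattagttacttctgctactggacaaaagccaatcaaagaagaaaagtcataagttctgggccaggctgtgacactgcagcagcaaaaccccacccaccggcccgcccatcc
Tnfrsf9, downstream start, chr4:150927749-150927998, plus strand: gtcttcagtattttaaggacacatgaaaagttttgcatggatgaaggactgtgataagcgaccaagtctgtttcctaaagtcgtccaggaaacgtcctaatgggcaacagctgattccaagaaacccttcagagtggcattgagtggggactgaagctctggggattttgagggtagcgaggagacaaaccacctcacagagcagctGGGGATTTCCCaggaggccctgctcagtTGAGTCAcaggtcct
Fas, chr19:34290409-34290658, plus strand: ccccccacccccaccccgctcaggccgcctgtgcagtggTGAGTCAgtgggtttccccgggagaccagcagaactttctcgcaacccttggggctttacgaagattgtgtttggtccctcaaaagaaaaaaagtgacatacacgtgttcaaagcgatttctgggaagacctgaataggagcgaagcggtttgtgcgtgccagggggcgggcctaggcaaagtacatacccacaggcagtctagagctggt

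Both strands of each 300-base window were searched. The NF-κB consensus matched in 1 of the 9 windows, that of the downstream Tnfrsf9 start, where 2 overlapping matches began 43 and 42 bases before the start. Among all 32851 promoter windows of that length 4.51% held such a match. The AP-1 motif matched in 2 windows, 15 bases before the downstream Tnfrsf9 start and 211 bases before the Fas start, and 7.81% of all windows held it. The NFAT core GGAAA matched in 7 windows of 6 receptors, with 61.3% of all windows holding it, and one of its matches, 38 bases before the downstream Tnfrsf9 start, overlaps the NF-κB matches. A match describes letters in a window only, and the arrays did not measure binding.

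Before the receptors were compared, the arrays were checked. Lsp1 read 7.48 and 7.24 on the WT medium arrays, 7.06 and 6.99 on the stimulated WT arrays, and between 3.48 and 3.69 on the 4 KO arrays, matching the labels. Values here and below are log2 of the processed signal minus the array's 75th percentile, called log2 level, so 0 is the 75th percentile of the array and 1 unit is a doubling. Of the genes that define T cells, 16 of 16 were measured and well above background on every array. In either stimulation comparison limma called 0 of them. At an unadjusted p below 0.05 there were 3 in each, beside 4470 (WT) and 3844 (KO) of all 15139 genes. The 2 KO arrays numbered replicate 2 stood apart. Neutrophil markers there had a median of 4.24 (medium) and 3.95 (stimulated) above the WT mean of the same condition, the erythroid and platelet markers 1.81 and 2.44, and the monocyte, macrophage and dendritic cell markers 1.03 and 0.83. Natural killer cell markers lay between -0.50 and -0.30 on the 4 KO arrays. On the KO arrays numbered replicate 1 the neutrophil medians were -0.20 and -0.06. T cell marker medians against WT were -0.37 (medium) and -0.22 (stimulated) on KO replicate 2, beside 0.07 and -0.03 on KO replicate 1. Replicate arrays also differed more in KO, with a root mean square SD of log2 levels over genes of 0.431 in medium and 0.454 stimulated, beside 0.253 and 0.250 in WT. Sizes of KO differences are therefore also given for some receptors without both replicate 2 arrays. That leaves 1 KO array per condition, so no test is given for them.

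Antibody stimulation was followed by higher mRNA of the costimulatory receptors OX40 and GITR in both genotypes. Tnfrsf4 rose 2.56-fold in WT and 3.11-fold in KO cells, and Tnfrsf18 rose 1.64-fold and 1.76-fold. Tnfrsf9 rose 1.82-fold in WT on its brighter probe, Fas rose 1.99-fold in KO, and the remaining receptors did not pass the test in either genotype. Neither gene's response is shown to be limited to that genotype. The other Tnfrsf9 probe was higher in both, by 1.70 in WT and 1.84 in KO on the log2 scale. Fas stood at 0.66 in WT, where it did not pass. The test was limma's moderated test on log2 levels over all 15139 genes, with Benjamini-Hochberg adjustment and a call at an adjusted p below 0.05. It called 3 of 8 receptors in WT, all higher, where 6.42% of all genes were called higher and 10.3% in either direction. In KO it called 3 of 8, all higher, against 5.85% called higher and 8.12% in either direction. The median log2 difference of the receptors was 0.48 in WT and 0.25 in KO, beside -0.09 and -0.08 over all genes tested. Leaving out 1 array changed these counts. In WT 0 receptors were called without WT medium replicate 1 or either stimulated WT array, 1 without WT medium replicate 2, and 2 without any 1 KO array. In KO 1 was called without either replicate 2 array or either stimulated WT array, 2 without either WT medium array or stimulated KO replicate 1, and 3 without KO medium replicate 1. Without both KO replicate 2 arrays, 1 KO array per condition is left, so only the sizes of differences are given for that setting.

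**Figure D1:**
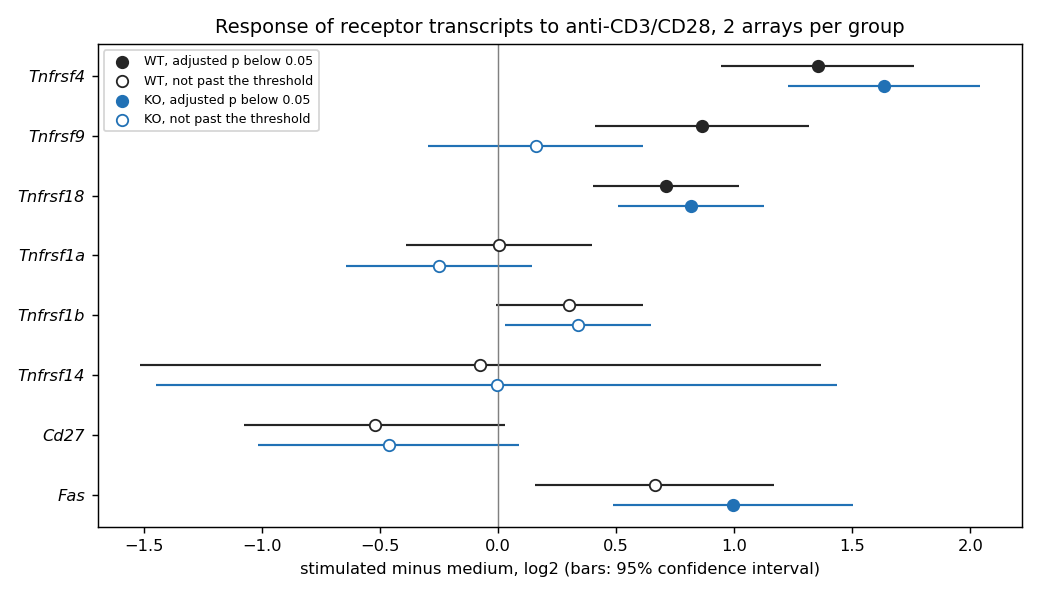
Stimulated minus medium difference in log2 level for each of the 8 receptors (x axis, log2; y axis, receptor), for WT and KO, with 95% confidence intervals of the limma fit over 8 arrays; filled points passed an adjusted p below 0.05. Tnfrsf4 lies farthest to the right in both genotypes, at 1.35 and 1.64, Tnfrsf9 is filled in WT and Fas in KO, and the Cd27 intervals lie mostly below 0.

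Tnfrsf4 encodes OX40, a costimulator of activated and regulatory T cells. Its log2 level was 5.14 and 5.14 on the WT medium arrays, 5.33 and 4.98 in KO medium, 6.47 and 6.52 in stimulated WT, and 6.63 and 6.95 in stimulated KO cells. All 4 stimulated arrays lay above all 4 medium arrays, and within each condition the genotypes were close. The stimulated minus medium difference was 1.35 ± 0.17 (SE, n = 2 and 2, adjusted p = 0.00955 by limma) in WT and 1.64 ± 0.17 (adjusted p = 0.00519) in KO. In WT 97.4% of all genes had a lower difference. The WT call was lost without WT medium replicate 1 or without either stimulated WT array. The KO call was kept on leaving out any 1 array, but was lost when the KO arrays were fitted alone (adjusted p = 0.0957, limma).

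Tnfrsf18 encodes GITR, the near neighbour of Tnfrsf4 on the chromosome. It read 5.51 and 5.46 in WT medium, 5.62 and 5.37 in KO medium, 6.12 and 6.27 in stimulated WT, and 6.29 and 6.33 in stimulated KO cells. Here too every stimulated array exceeded every medium array, by a smaller step than for Tnfrsf4. The differences were 0.71 ± 0.13 (adjusted p = 0.0254, limma) in WT and 0.82 ± 0.13 (adjusted p = 0.0173) in KO. The WT call was lost without any 1 of the 4 WT arrays, with adjusted p between 0.0825 and 0.170, and the KO call without either stimulated WT array or either KO replicate 2 array, with adjusted p between 0.0520 and 0.0841. Without both KO replicate 2 arrays the KO difference was 0.67, and the Tnfrsf4 difference was 1.30. Each then compares 1 array with 1, so the spread among KO arrays is not measured.

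Across the 8 arrays the levels of Tnfrsf4 and Tnfrsf18 ran together, with a Pearson correlation of 0.99 that is given as a description, since the arrays share 2 conditions. Both receptors are abundant in regulatory T cells, so the markers of that subset are given beside them. Of 10 listed regulatory T cell markers 9 were measured, 8 of them well above background on every array. In each genotype limma called 3 of the 9 higher and 0 lower, with a median difference of 0.41 in both. Of all genes 6.42% were called higher in WT and 5.85% in KO, with medians of -0.09 and -0.08. Foxp3, the transcription factor that defines the subset, rose by 1.31 in WT (adjusted p = 0.00425, limma) and 1.48 in KO (adjusted p = 0.00286) on the log2 scale. Il2ra, the interleukin-2 receptor alpha chain that conventional T cells also gain on activation, rose by 3.36 and 4.03, and Gpr83 was at least 9.68-fold and 6.61-fold higher, being not well above background in medium. The other 6 were called in neither genotype. Of these Ctla4 stood at 0.41 and 0.41, Ikzf4 at 0.51 and 0.46, Ikzf2 at -0.05 and 0.13, and Nrp1 had the lowest differences, at -0.63 and -0.50. The log2 summed level of the 9 markers was 5.46 to 5.55 in WT medium, 5.45 to 5.65 in KO medium, 6.49 to 6.66 in stimulated WT and 6.57 to 6.62 in stimulated KO. This sum weights bright genes, and Il2ra alone read 2.16 and 1.59 in WT medium and 5.19 and 5.27 in stimulated WT, so it does not describe the 9 markers alike. The part of these cells in the receptor differences was not tested, and in such mixed samples more cells of a type and more RNA per cell cannot be told apart.

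**Figure D2:**
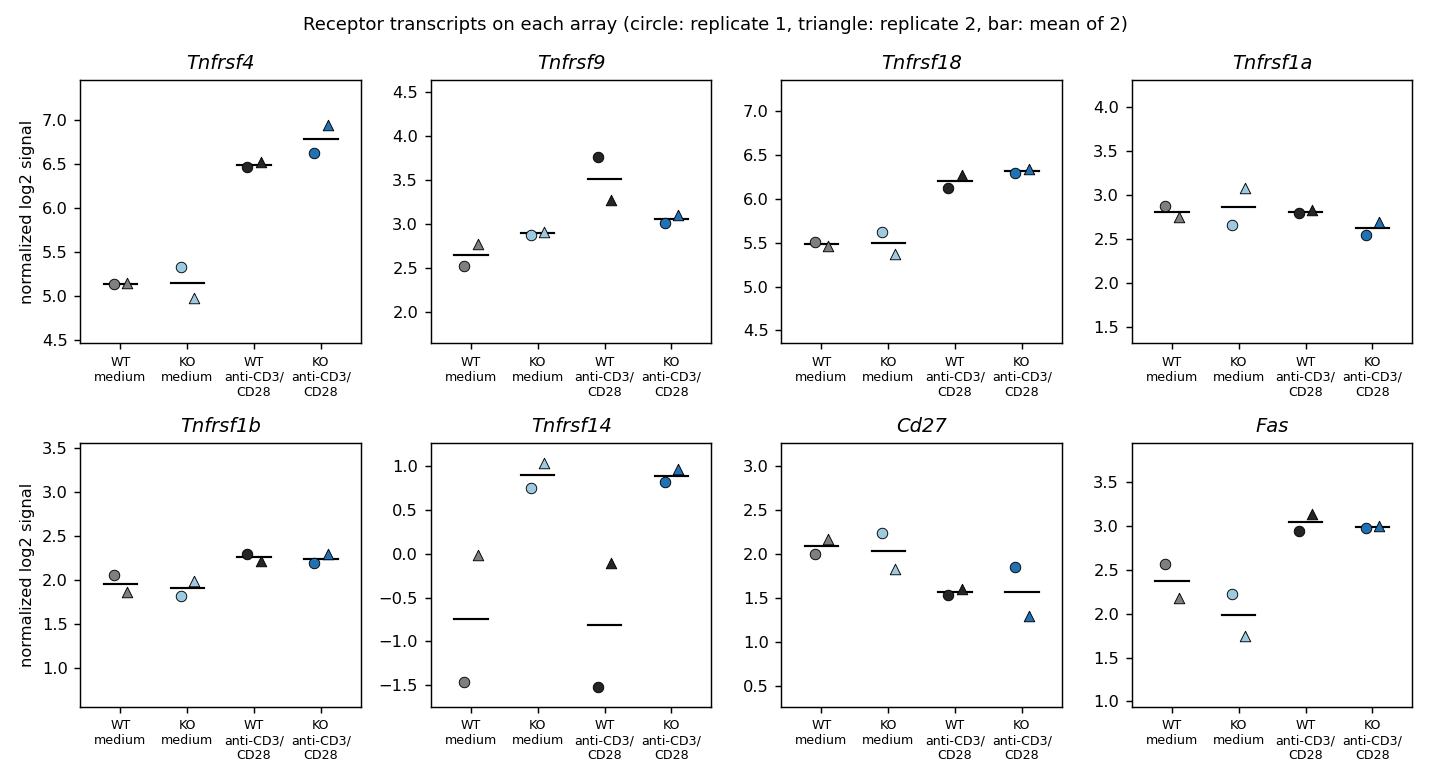
Log2 level (y axis, log2 processed signal minus the array's 75th percentile) of the 8 receptors, 1 panel each, on each of the 8 arrays, grouped as WT medium, KO medium, WT stimulated and KO stimulated (x axis); circles are replicate 1, triangles replicate 2 and bars the mean of the 2 arrays. Tnfrsf4 and Tnfrsf18 step up with stimulation in both genotypes, while Tnfrsf14 separates by genotype, with the WT replicates 1.44 and 1.41 apart. Every panel spans the same number of log2 units, at its own position.

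Tnfrsf9 encodes CD137, a costimulator best known from activated CD8 T cells, and its 2 probes gave different pictures. The brighter probe, A_55_P2029061, read 2.53 and 2.78 in WT medium, 2.88 and 2.91 in KO medium, 3.76 and 3.27 in stimulated WT, and 3.01 and 3.10 in stimulated KO cells. On this probe stimulated WT stood alone, and stimulated KO exceeded KO medium by less than the 2 stimulated WT arrays differed from each other. Its difference was 0.86 ± 0.19 (adjusted p = 0.0413, limma) in WT and 0.16 ± 0.19 (adjusted p = 0.639, 95% confidence interval -0.29 to 0.62) in KO. The WT call sits near the threshold and was lost when any 1 of the 8 arrays was left out, with an adjusted p between 0.0539 and 0.203.

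The dimmer Tnfrsf9 probe, A_55_P2082180, read 0.97 and 1.30 in WT medium, 1.5 and 1.17 in KO medium, 2.79 and 2.87 in stimulated WT, and 3.07 and 3.27 in stimulated KO cells. On it every stimulated array lay well above every medium array in both genotypes. In a fit over all 37257 probes past the filter its difference was 1.70 ± 0.18 (adjusted p = 0.00782, limma) in WT and 1.84 ± 0.18 (adjusted p = 0.00635) in KO. In that same fit the brighter probe's WT difference had an adjusted p of 0.0547. The probe sequences were not used here, so which transcripts each probe reports is not known from these data.

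**Figure D3:**
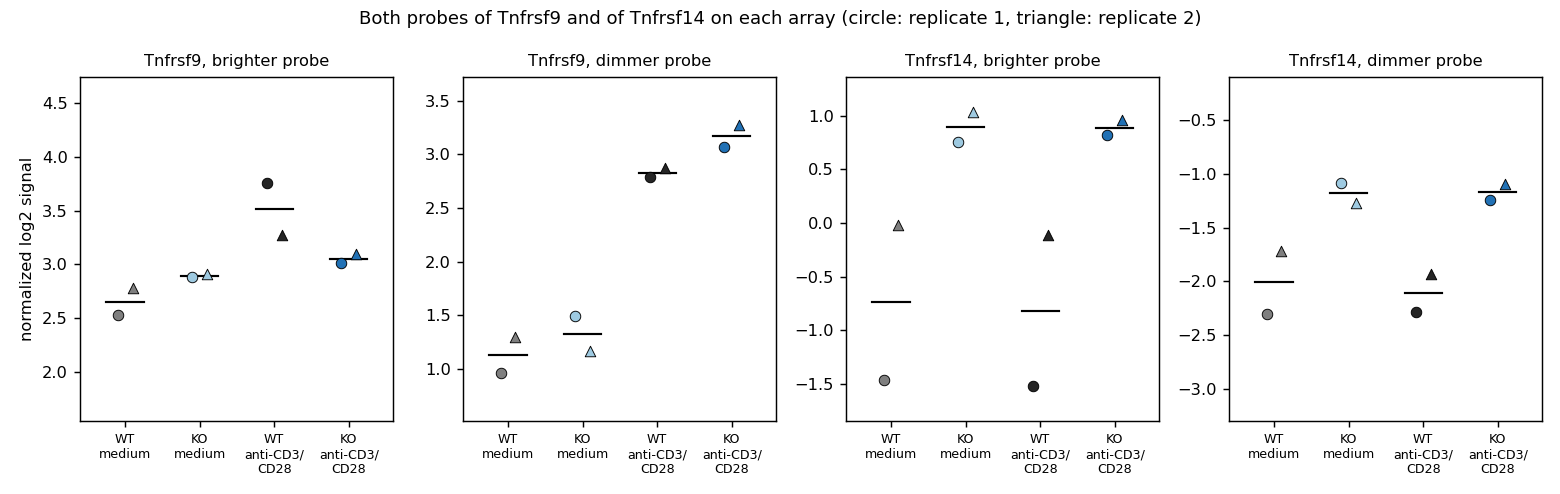
Log2 level (y axis, log2 processed signal minus the array's 75th percentile) of both probes of Tnfrsf9 and of Tnfrsf14, 1 panel per probe, on each of the 8 arrays by group (x axis); circles are replicate 1, triangles replicate 2 and bars the mean of the 2 arrays. The brighter Tnfrsf9 probe is highest in stimulated WT and the dimmer one is higher after stimulation in both genotypes, while both Tnfrsf14 probes are higher on every KO array than on any WT array.

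Fas encodes the death receptor that limits T cell responses. It read 2.57 and 2.18 in WT medium, 2.23 and 1.75 in KO medium, 2.95 and 3.13 in stimulated WT, and 2.97 and 3.0 in stimulated KO cells. The 4 stimulated arrays lay between 2.95 and 3.13, above all medium arrays. The difference was 0.66 ± 0.21 in WT (adjusted p = 0.0984, limma), which did not pass, and 0.995 ± 0.208 in KO (adjusted p = 0.0410), which did. The difference between these responses was 0.33 ± 0.29 (95% confidence interval -0.38 to 1.05), so the pass in one genotype and not the other does not show that they differ. The KO call was lost on leaving out any 1 array other than KO medium replicate 1. Without both KO replicate 2 arrays the difference was 0.74, from 1 array in each KO group.

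The receptors for TNF itself were called in neither genotype. Tnfrsf1b, the TNFR2 gene and the costimulatory of the pair, read 2.06 and 1.86 in WT medium, 1.82 and 1.99 in KO medium, 2.30 and 2.22 in stimulated WT, and 2.19 and 2.29 in stimulated KO cells. Its stimulated arrays all exceeded its medium arrays, by a narrow margin, and the differences of 0.30 ± 0.13 (adjusted p = 0.177, limma) and 0.34 ± 0.13 (adjusted p = 0.167) did not pass. Tnfrsf1a, the TNFR1 gene, read 2.87 and 2.75 in WT medium, 2.66 and 3.08 in KO medium, 2.80 and 2.83 in stimulated WT, and 2.55 and 2.69 in stimulated KO cells. Its stimulated and medium arrays overlapped within each genotype. In WT the difference was 0.003 ± 0.16, with a 95% confidence interval of -0.39 to 0.40. In KO it was -0.25 ± 0.16, with one of -0.64 to 0.15. In all, 5 of 8 receptors (Tnfrsf4, Tnfrsf18, Tnfrsf9, Fas and Tnfrsf1b) had all 4 stimulated arrays above all 4 medium arrays, where 15.6% of all genes did.

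Cd27, a receptor of resting and memory T cells, had negative differences. Its levels were 2.0 and 2.17 in WT medium, 2.24 and 1.83 in KO medium, 1.53 and 1.6 in stimulated WT, and 1.86 and 1.29 in stimulated KO cells. Stimulated WT lay below WT medium on both arrays, while the KO groups overlapped, with KO replicate 1 the higher array in both conditions. The difference was -0.52 ± 0.23 (adjusted p = 0.187, limma; 95% confidence interval -1.07 to 0.03) in WT and -0.46 ± 0.23 (adjusted p = 0.265) in KO, and neither passed. The other Cd27 probe gave -0.58 ± 0.24 and -0.44 ± 0.24, which did not pass either. When only the WT arrays were fitted, Cd27 was called lower in WT, with the same difference and an adjusted p of 0.0460, so its call depended on how the arrays were fitted.

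Tnfrsf14, the HVEM gene, had stimulation differences near 0 and the largest genotype difference among the 8 receptors. It read -1.46 and -0.02 in WT medium, 0.75 and 1.04 in KO medium, -1.52 and -0.11 in stimulated WT, and 0.82 and 0.96 in stimulated KO cells. All 4 KO arrays lay above all 4 WT arrays, and the WT arrays were themselves split, with replicate 1 below replicate 2 in both conditions. Stimulation differences were -0.08 ± 0.59 in WT and -0.01 ± 0.59 in KO. The KO minus WT difference over both conditions was 1.67 ± 0.42, or 3.18-fold, with a 95% confidence interval of 0.65 to 2.69. Its p of 0.00695 became 0.405 after limma's adjustment over all genes, so the difference was not called. The fit took the 8 arrays as independent, while replicate 1 minus replicate 2 was -1.44 in WT medium and -1.41 in stimulated WT. Where same-numbered arrays share a deviation in this way, the SE, interval and p over both conditions may be too narrow.

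The second Tnfrsf14 probe gave the same ordering at a lower level. It read -2.31 and -1.71 in WT medium, -1.09 and -1.27 in KO medium, -2.28 and -1.93 in stimulated WT, and -1.24 and -1.10 in stimulated KO cells. Every KO array again exceeded every WT array, and the KO minus WT difference was 0.88 ± 0.17 (adjusted p = 0.191 over all probes, limma). Tnfrsf14 was 1 of 8 receptors whose KO arrays all exceeded its WT arrays, where 1.44% of all genes did so. Without both KO replicate 2 arrays the difference on the first probe was 1.56, with 1 KO array left in each condition. It ranged from 1.31 without the first WT medium array to 2.03 without the second.

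Markers of other cells moved between the same arrays, and their part in the Tnfrsf14 difference was not tested. The neutrophil medians against WT were -0.20 and -0.06 on the KO replicate 1 arrays, where Tnfrsf14 read 0.75 and 0.82, and 4.24 and 3.95 on the KO replicate 2 arrays, where it read 1.04 and 0.96. Of 13 neutrophil markers 11 were measured, 9 of them well above background on every array. Their log2 summed level was 7.42 to 8.00 in WT medium, 7.58 to 9.59 in KO medium, 7.16 to 7.19 in stimulated WT and 7.25 to 8.79 in stimulated KO. This sum too weights bright genes, and Csf3r alone read 7.67 and 7.07 in WT medium. Csf3r was lower in KO over both conditions, by -0.24 ± 0.18, while 10 of the 11 markers were higher. The B cell markers were lower in KO, with all 11 measured of 12 negative over both conditions, a median difference of -0.54, and limma calling 0 of them (7 at an unadjusted p below 0.05). Their log2 summed level was 5.79 to 6.01 in WT medium, 5.45 to 5.56 in KO medium, 5.40 to 5.61 in stimulated WT and 4.79 to 4.86 in stimulated KO.

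**Figure D4:**
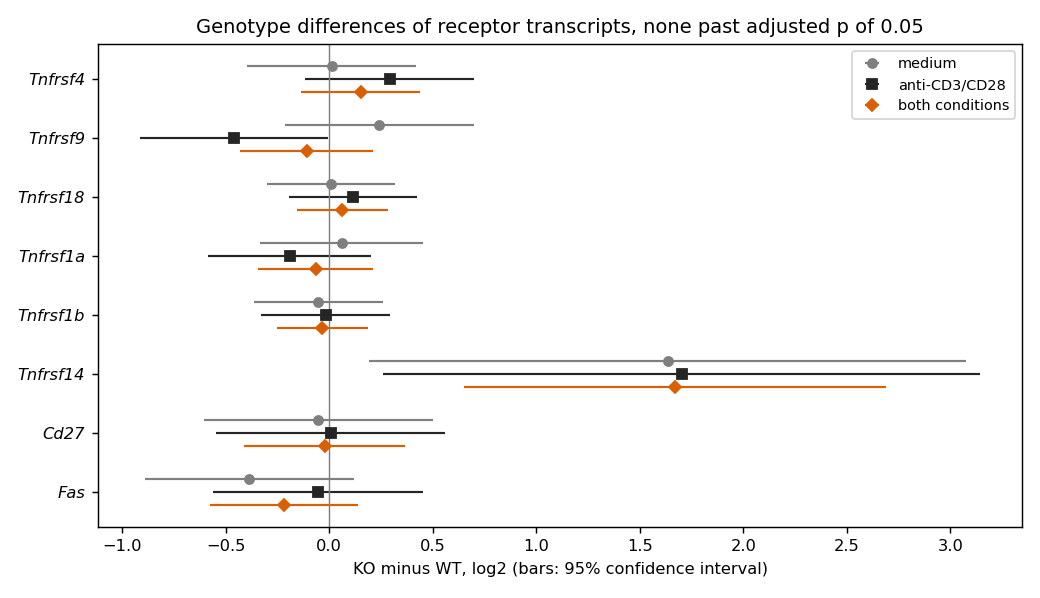
KO minus WT difference in log2 level (x axis, log2) of the 8 receptors (y axis) in medium (circles), after stimulation (squares) and over both conditions (diamonds), with 95% confidence intervals of the limma fit over 8 arrays; none passed an adjusted p below 0.05. Tnfrsf14 lies at 1.63, 1.70 and 1.67 with wide intervals, and Tnfrsf9 lies at 0.24 in medium and -0.46 after stimulation.

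Loss of Lsp1 was not accompanied by a called difference in any receptor. In limma's test 0 of 8 were called in medium (0.00661% of all genes), 0 of 8 after stimulation (0.0198%), 0 of 8 for the difference between the responses (0.00661%) and 0 of 8 over both conditions (0.00661%). In medium and over both conditions the 1 gene called was Lsp1 itself (adjusted p = 0.00127 and 0.000222, limma). With so few genes called, 0 of 8 does not set the receptors apart. At an unadjusted p below 0.05 the counts were 1, 2, 1 and 1 of 8, beside 865, 762, 459 and 1239 of all genes. The receptors concerned were Tnfrsf14 in medium, Tnfrsf14 and Tnfrsf9 after stimulation, Tnfrsf9 for the response and Tnfrsf14 over both conditions. In medium the intervals were -0.40 to 0.42 for Tnfrsf4 and -0.30 to 0.32 for Tnfrsf18, less than a doubling in either direction. They describe these samples with the arrays taken as independent. As replicate arrays may not stand for different mice, they set no bound on a genotype difference between mice. After stimulation the Tnfrsf4 interval was -0.11 to 0.70 and that of Tnfrsf18 was -0.20 to 0.43. For Tnfrsf9 the brighter probe was 0.24 ± 0.19 higher in KO medium and 0.46 ± 0.19 lower in stimulated KO (adjusted p = 0.736 and 0.932), whereas the other probe was higher in KO in both conditions, by 0.20 ± 0.18 and 0.34 ± 0.18.

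Most genes for the ligands of these receptors were higher after stimulation. All 10 listed ligands and binding partners were measured. In WT 6 were called higher and 0 lower, with a median of 1.66, where 6.42% of all genes were called higher with a median of -0.09. In KO 8 were called higher and 0 lower, with a median of 2.11, against 5.85% and -0.08. These counts moved with single arrays, and in KO fewer were called whichever array was left out. Tnf, the ligand of TNFR1 and TNFR2, rose by 3.8 in WT and 4.32 in KO on the log2 scale (adjusted p = 0.00192 and 0.00145, limma). Lta, lymphotoxin alpha, which binds the same receptors, rose by 2.21 and 2.78. Cd70, the CD27 ligand, rose by 3.31 and 3.32, against the negative differences of its receptor. Genes of the HVEM partners LIGHT, CD160 and BTLA all rose: Tnfsf14 by 3.11 and 3.35, Cd160 by 2.0 and 2.65, and Btla by 1.32 and 1.57. The ligands of OX40 and CD137 passed the test in KO, Tnfsf4 at 1.11 (adjusted p = 0.0461) and Tnfsf9 at 1.02 (adjusted p = 0.0460), and stood at 0.97 (adjusted p = 0.0562) and 0.76 (adjusted p = 0.0849) in WT. Fasl stood at 0.66 and 0.82 and passed in neither genotype. Tnfsf18, the GITR ligand, was not well above background in stimulated WT and KO medium, and was not called. Between genotypes limma called 0 of 10 in each of the 4 comparisons, with 2, 0, 0 and 1 at an unadjusted p below 0.05 in medium, after stimulation, for the response and over both conditions, so the unequal counts do not show that the genotypes differ.

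Among other receptors of the family, Cd40 and Tnfrsf11b rose in both genotypes. Of 20 listed, 17 were measured, and 2 were called higher and 0 lower in WT, with a median of -0.01, and 2 higher and 1 lower in KO, with a median of 0.01. With 10.3% of all genes called in WT and 8.12% in KO, so few calls do not set this list apart. Cd40, a receptor better known from B cells and dendritic cells, rose by 2.80 and 3.08. Tnfrsf11b, which encodes the secreted decoy receptor osteoprotegerin, rose by 1.38 and 1.21. The gene called lower in KO, named after its values were seen, was Tnfrsf13b, the B cell receptor TACI, at -0.77 (adjusted p = 0.0187, limma), with -0.50 (adjusted p = 0.0560) in WT. The count of 2 in WT became 0 without WT medium replicate 1 or either stimulated WT array and 1 without WT medium replicate 2, and the count of 3 in KO became 1 without KO medium replicate 1 or stimulated KO replicate 2. Between genotypes limma called 0 of the 17 in each comparison, with 1, 1, 0 and 4 at an unadjusted p below 0.05 in medium, after stimulation, for the response and over both conditions.

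**Figure D5:**
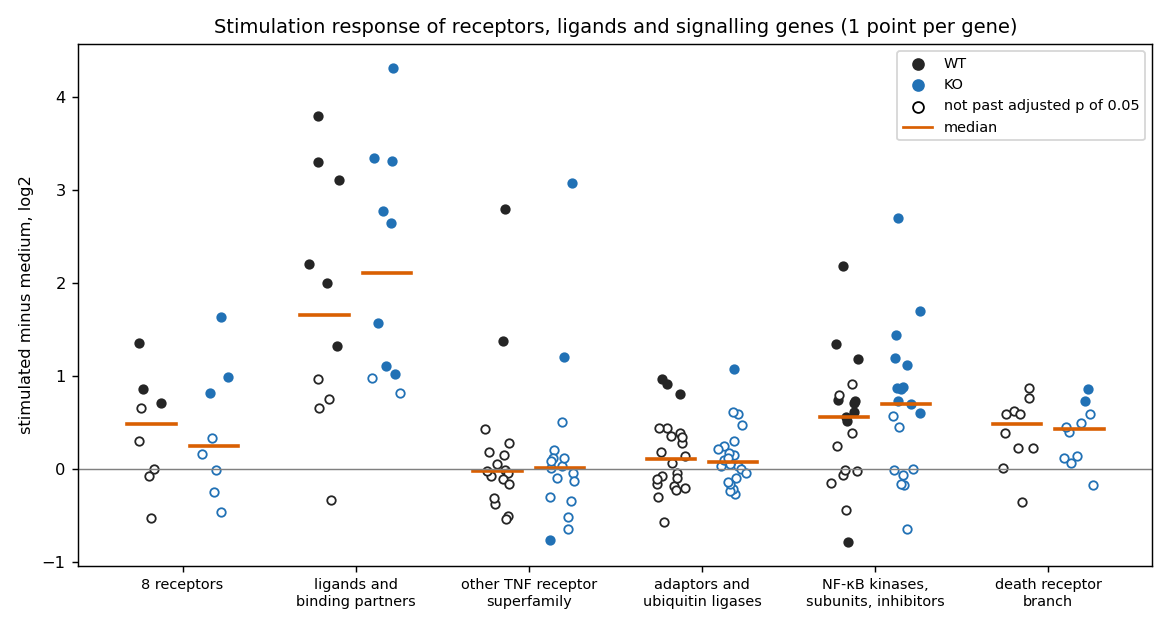
Stimulated minus medium difference in log2 level (y axis, log2) of the 8 receptors and the genes of 5 companion lists (x axis), in WT and KO; each point is a gene, filled where the adjusted p was below 0.05, and the bar is the list's median. The ligands reach the highest values, with medians of 1.66 and 2.11, while the adaptors and the other receptors centre near 0.

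Downstream of the receptors, adaptor and NF-κB genes were among those that passed the stimulation test, which called 10.3% of all genes in WT and 8.12% in KO. Of 22 adaptors and ubiquitin ligases, all measured, 3 were called higher in WT (median 0.11) and 1 in KO (median 0.07), and 0 lower. Beside those shares of all genes, so few calls do not set the adaptor list apart. Traf4 rose by 0.81 in WT and 1.08 in KO, and in WT the kinase genes Ripk1 and Map3k5 rose by 0.97 and 0.92, with 0.61 and 0.12 in KO, neither called. The TRAF genes best known for OX40 and CD137 signalling, Traf1, Traf2, Traf3 and Traf5, named after their values were seen, were not called in either genotype. Of 19 NF-κB kinases, subunits and inhibitors, all measured, 9 were called higher and 1 lower in WT (median 0.56), and 11 higher and 0 lower in KO (median 0.70). Nfkbid and Nfkbiz, nuclear members of the inhibitor family, rose by 2.18 and 1.34 in WT and by 2.71 and 1.70 in KO. Nfkb1 rose by 1.18 and 1.12, and Nfkb2, the precursor subunit of the alternative pathway, by 0.74 and 0.88. Tnip1, whose product restrains NF-κB signalling together with A20, was the gene called lower, at -0.78 in WT (adjusted p = 0.0294, limma), with -0.64 (adjusted p = 0.0554) in KO. Of the death receptor branch 10 of 11 genes were measured. In WT limma called 0 (median 0.49), with 6 at an unadjusted p below 0.05, beside 4470 of all 15139 genes. In KO it called 2 higher (median 0.43). Those 2, named after their values were seen, were Cflar, an inhibitor of caspase 8 activation, at 0.86, and Daxx at 0.73. These counts moved with single arrays. The NF-κB count fell from 10 to 2 or 3 in WT without any 1 of the 4 WT arrays, and from 11 to between 2 and 5 in KO without either KO medium array, KO stimulated replicate 2 or either stimulated WT array. The adaptor count fell to 0 in WT without WT medium replicate 1 or either stimulated WT array, and to 0 in KO without either KO replicate 2 array or either stimulated WT array, and was 2 in KO without either WT medium array. In KO the death receptor count was 0 or 1 without any 1 array, and in WT it was 1 without either stimulated KO array. Between genotypes, limma called 0 genes of these 3 lists in each of the 4 comparisons, with at most 1 gene of a list at an unadjusted p below 0.05.

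For each receptor the 3 genes with the most similar course were sought among 13435 genes well above background on all arrays, by Pearson correlation of log2 levels over the 8 arrays. With 8 arrays and so many genes high values are common, and they are given as a description without a test. Tnfrsf4 ran most closely with Il12rb1, Stat5a and Nfkb2 (each 0.996). Tnfrsf18 ran with Stat5a (0.993), the cytokine receptor kinase gene Jak3 (0.993) and Tnfrsf4 (0.992). The neighbours of Fas were Traf3 (0.999), Nup93 (0.992) and Errfi1 (0.992), and those of Tnfrsf1b were Ube2w (0.988), Arhgap22 (0.987) and Fndc7 (0.985). Cd27 was matched by Vps37b (0.995), Kcnk1 (0.993) and Klc3 (0.993). The brighter Tnfrsf9 probe was matched by Neurl1b (0.990), Ung (0.972) and Synpo2l (0.968), of which Neurl1b also stood apart in stimulated WT. Tnfrsf1a had the weakest matches, Cibar1 (0.893), Btbd10 (0.887) and Ctsh (0.886).

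Tnfrsf14 was matched by Ubox5 (0.990), Sostdc1 (0.973) and Bace2 (0.966). Ubox5 varied over a narrow range, with a KO minus WT difference of 0.14 over both conditions, whereas Sostdc1 differed by 1.43 ± 0.40 and Bace2 by 1.23 ± 0.19 (adjusted p = 0.447 and 0.138, limma). Sostdc1 read -2.13 and -0.59 in WT medium, 0.15 and -0.06 in KO medium, -1.71 and -0.55 in stimulated WT, and 0.33 and 0.32 in stimulated KO cells. It showed the same low first WT replicate as Tnfrsf14 in both conditions.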

How the data were processed

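Per the file headers, the deposited spot intensities are linear and come from Agilent Feature Extraction version 10.7.1.1. Its processed signal, an intensity with the background subtracted, was used. Each array held 62976 spots, 3671 of them controls. The deposited value table holds the median intensity, linear and uncentred, with 0 cells differing from the scanner files, and was used as an alternative. All 8 arrays share 1 slide and 1 scan.

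Control spots and spots marked as outliers (120 to 195 per array) were left out, repeated spots were averaged, and log2 of the signal minus the array's 75th percentile (1200 to 1469) was analysed. The share of probes well above background was 58.4% to 69.2% per array. A probe was kept if both arrays of some group had it well above background (37257 probes). Names came from accessions matched to RefSeq genes of GRCm38.p6, which named 26056 probes and left 29625 unnamed here. The files name the build mm9, so coordinates are printed only for RefSeq promoters. The brightest probe represented each gene.

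A mean per group was fitted over 8 arrays with limma 3.58.1 in R 4.3.3 (data.table version 1.17.8), leaving 4 residual degrees of freedom plus 2.11 from moderation. P-values are two-sided, adjusted by Benjamini-Hochberg over all genes within each of 6 contrasts, and ± is the SE. The scripts were tested on simulated data. An exact permutation test of 2 against 2 arrays cannot go below p = 0.333, and the number of arrays limits the precision.

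The receptors and the companion and marker lists were chosen with earlier results of these data known. Named are all receptors, Lsp1, every ligand, up to 4 called genes of each other companion list with the largest WT stimulation difference, and the 3 closest genes per receptor. Other names are marked as chosen after their values were seen, apart from the cell type markers. A gene not well above background in a group has only a bound there: at least N-fold, against the higher of its own signal and the lowest signal well above background on each array. Background correction, scaling, filter, probe choice, samples in the fit, replicate block and left-out arrays were varied.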

Additional observations from a re-analysis of the deposited data

Results flagged for a closer look

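Tnfrsf9 stood out because the KO minus WT difference of its brighter probe had opposite signs in the 2 conditions, without overlap of the arrays. The probe was higher after stimulation in both genotypes. Both KO medium arrays (2.88 and 2.91) lay above both WT medium arrays (2.53 and 2.78), and both stimulated KO arrays (3.01 and 3.10) lay below both stimulated WT arrays (3.76 and 3.27). The difference between the stimulation responses, KO minus WT, was -0.70 ± 0.26 in limma's test (adjusted p = 0.9999 over all genes). The gene's other probe gave 0.14 ± 0.26, with a 95% confidence interval of -0.48 to 0.77. Leaving out 1 array moved the value on the brighter probe between -0.95 and -0.46, both with an array of stimulated WT left out. Groups of 2 arrays are too small for a check of single outlying arrays.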

How the results depend on the processing

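Under every alternative run, 0 of 8 receptors were called in the 4 genotype comparisons, and no called stimulation difference changed sign. The 3 receptors called in WT and the 3 in KO were less stable. Leaving out 1 array gave 0 to 2 called in WT and 1 to 3 in KO. In KO, 0 were called when the KO arrays were fitted alone, where 38 of all genes were called in place of 1230. Without both KO replicate 2 arrays 1 array is left in each KO group, so no call is given for that setting. Quantile normalization lost Tnfrsf9 in WT (adjusted p = 0.0522, limma) and leaving dim probes in lost Fas in KO. The array median in place of the 75th percentile added Fas in WT and moved the median difference of all genes there from -0.09 to 0.02. The mean of both probes, or the other probe, added Tnfrsf9 in KO. Fitting the WT arrays alone lost Tnfrsf9 and called Cd27 lower in WT. The number of all genes called ran from 199 to 3522 in WT and from 38 to 2776 in KO. Replicate numbers did not pair the samples across genotypes, where deviations of same-numbered arrays correlated at -0.06 to -0.24. Within a genotype they correlated at 0.16 between the WT conditions and 0.74 between the KO conditions. Same-numbered KO arrays thus shared much of their deviation, which the main fit did not take into account, and the values across genotypes do not bear on that. With the replicate number as a block, 2 receptors were called in WT and 3 in KO (1559 and 1148 of all genes). With a block within each genotype, 4 were called in each, Cd27 lower being added in both (adjusted p = 0.0323 in WT and 0.0481 in KO, limma, against 0.187 and 0.265 without it; 3522 and 2776 of all genes). Slide and scan could not be tried as a block. Normexp was run on the median signal, chosen after seeing the files, which hold no mean signal.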

Other observations

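The genes next to Tnfrsf14 on chromosome 4, in the RefSeq order of tested genes, were looked at after its values were seen. Over the 5 tested genes on each side, KO minus WT differences over both conditions ran from -0.76 (Prdm16) to 1.05 (Hes5). Hes5, a target gene of Notch signalling and the next tested gene on one side, read -0.32 and -0.11 in WT medium, 0.58 and 0.29 in KO medium, -0.77 and 0.02 in stimulated WT, and 0.90 and 1.25 in stimulated KO cells. Its 4 KO arrays all exceeded its 4 WT arrays, and its difference of 1.05 ± 0.20 was not called (adjusted p = 0.233, limma). Prxl2b, the next tested gene on the other side, differed by -0.08 ± 0.11.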
